A study of Rattus norvegicus with 8 samples.

Results

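Neuropeptide precursor genes encode the proteins from which neurons cut their peptide messengers. The 9 genes Tac1, Npy, Sst, Cck, Penk, Pdyn, Crh, Adcyap1 and Vip were taken by symbol from a count table of 28909 gene symbols, and all 9 were found in it. Of these, 8 passed the filter of more than 20 reads in at least 2 libraries, as did 14309 genes in all. Crh did not pass, and is described by its reads and, in somata, by a fit without the filter.

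The libraries came from primary hippocampal neurons of embryonic Sprague-Dawley rats, grown on inserts whose pores let axons and dendrites, but not somata, reach the lower side. Total RNA was taken separately from the upper side (somata) and the lower side (processes), depleted of ribosomal RNA and sequenced. Control cultures received the ethanol vehicle, and PTX cultures received picrotoxin, an antagonist of the GABA-A receptor, for 48 h from 18 to 20 days in vitro. Each of the 4 groups (somata control, somata PTX, processes control, processes PTX) had 2 libraries, numbered 1 and 2, and no genotype or transgene was involved. The labels do not say whether the libraries of a group came from separate cultures, so p-values measure the spread between these libraries, which may be technical. The upper side also carries proximal neurites, and marker genes of glia and of proliferating cells were read on both sides.

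Blocking GABA-A receptors removes fast inhibition, and prolonged blockade is a standard way to evoke homeostatic scaling, in which neurons weaken their excitatory synapses. Neuropeptides are made in the soma as larger precursors that enter the secretory pathway, are cut by prohormone convertases and amidated, and travel in dense-core vesicles into axons and dendrites. Transcription of many precursor genes depends on neuronal activity, in part through cAMP response elements bound by CREB. In the hippocampus, Sst, Npy, Vip and Cck are used as labels of GABAergic interneuron classes, Pdyn and Penk are opioid precursors found in granule cells and other neurons, and Adcyap1 encodes PACAP.

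The promoters of the tested members are shown first, because several of these genes are textbook targets of CREB. The RefSeq promoter table (assembly GRCr8, 250 bases before to 50 after the annotated start) held 6 of the 9 members, namely Tac1, Npy, Sst, Pdyn, Adcyap1 and Vip. The palindromic cAMP response element TGACGTCA, which reads the same on both strands, was found in the Sst promoter at position 3 from the start and in no other member of the 6, and it occurs in 1.83% of all 33469 promoters in the table. The shorter TGACG, searched on both strands and overlapping the palindrome, was found in Sst, in Tac1 at position -206 (as its reverse complement CGTCA) and in Vip at position -97, and occurs in 21.2% of all promoters. TATAAA, searched on both strands, was found in Pdyn at position -13, in Vip with the nearest at position -48 and in Adcyap1 at position -248, and occurs in 14.2% of all promoters. The windows of 30 bases below are written in the direction of the gene with the matched letters in capitals, on chr11:90461537-90461566 plus strand for Sst, chr4:36645365-36645394 plus strand for Tac1, chr1:44470371-44470400 plus strand for Vip and chr3:137366499-137366528 minus strand for Pdyn.
Sst: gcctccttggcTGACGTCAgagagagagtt
Tac1: tccctaaaattgCGTCAtttcgaacccaat
Vip: ggatcaccactgTGACGtctttcgaggagc
Pdyn: gagactctcttcTATAAAaggggagggagt
These matches describe letters in the window and say nothing of binding in these cultures. The Npy promoter held none of the 3 motifs in this window.

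Levels are CPM, a gene's reads relative to the TMM-scaled total of its library on the usual CPM scale, and are compared between libraries for 1 gene at a time, since no transcript lengths were used. Total counts ranged from 12290890 to 18455662 per library, but the mitochondrial genome took so many in processes that other genes shared 9518079 to 11228343 counts in somata and 4703151 to 5492640 in processes. A single read was worth 0.0360 to 0.0425 CPM in somata and 0.101 to 0.117 CPM in processes. This depth left 4 members with too few reads in processes, meaning that no process library held more than 20. They were Tac1 with 5 to 13 reads, Npy with 5 to 17, Vip with 1 to 3 and Crh with 0 to 5. Pdyn exceeded 20 reads in 1 of the 4 process libraries, Penk in 2, Adcyap1 in 3, and Sst and Cck in all 4.

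**Figure D1:**
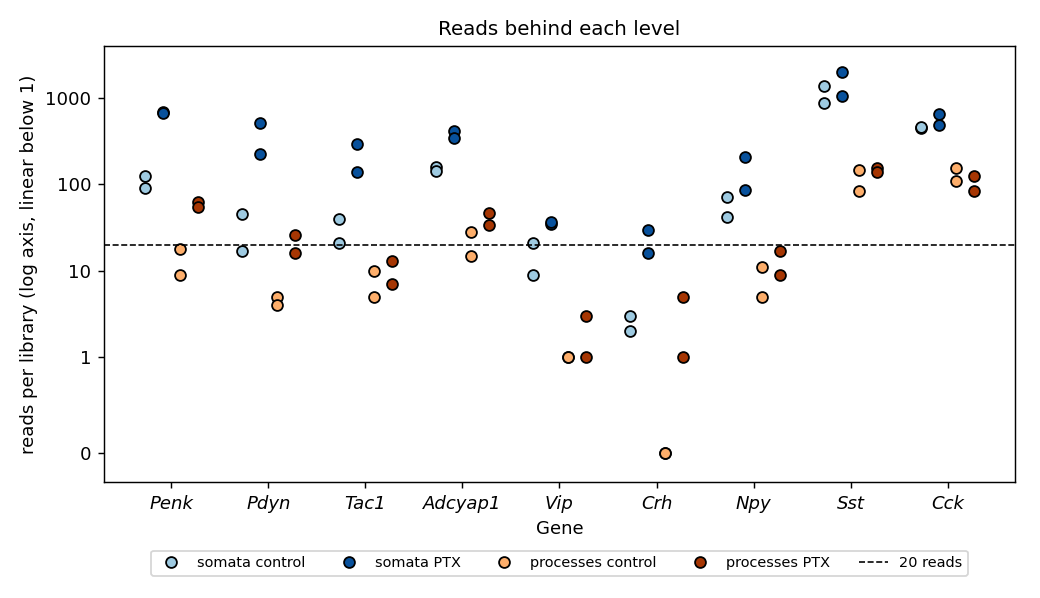
Reads per library (log axis, linear below 1) for the 9 precursor genes, with 1 point per library, coloured by group, and a dashed line at 20 reads. Every process library of Tac1, Npy, Vip and Crh lies below the line, while those of Sst and Cck lie above it with 83 to 154 reads.

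In somata, PTX raised the mRNAs of both opioid precursors, of the tachykinin precursor Tac1 and of Adcyap1, by 2.40-fold to 10.8-fold. Of the 8 tested members 4 were higher at an adjusted p under 0.05 and none was lower, against 2.09% of all tested genes called higher. The fitted change was above 0 for all 8, with a median log2 fold change of 1.27 against -0.01 over all 14309 genes. Npy, Vip, Sst and Cck did not pass. Pdyn and Vip met the read filter only with their PTX libraries, where they were high. The counts of members that include them rest in part on that selection. Changes are log2 fold changes of PTX over control with standard errors (SE), with p-values from the quasi-likelihood F-test of edgeR, adjusted by Benjamini-Hochberg over all tested genes.

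Pdyn, the precursor of the dynorphins, which act on the kappa opioid receptor, had the largest fitted change of the members. Its libraries held 46 and 17 reads in somata control and 515 and 224 in somata PTX, or 1.31 CPM ± 0.912 and 14.0 CPM ± 6.39 (SD, n = 2). Both PTX libraries lay far above both controls, and replicate 2 was the lower in each group. The log2 fold change was 3.43 (SE 0.432, adjusted p = 0.0022), and it was 4.38 without somata control replicate 1 and 2.83 without somata control replicate 2, with the call kept in both.

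Penk, the precursor of the enkephalins, had the smallest adjusted p of the members. It went from 124 and 90 reads in somata control to 682 and 676 in somata PTX, or from 4.40 CPM ± 1.23 to 26.6 CPM ± 2.90 (SD, n = 2). The libraries of each group lay close together and the groups were well apart. The log2 fold change was 2.60 (SE 0.215, adjusted p = 0.000216), a 6.05-fold rise.

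Tac1, the precursor of substance P and neurokinin A, held 40 and 21 reads in somata control and 294 and 141 in somata PTX. Mean levels of 1.26 CPM ± 0.621 and 8.27 CPM ± 3.25 (SD, n = 2) followed, with no overlap of the groups. The log2 fold change was 2.72 (SE 0.391, adjusted p = 0.00425), and left-out libraries moved it between 2.24, without somata PTX replicate 1, and 3.32, without somata control replicate 1. Without somata control replicate 2 it was 2.27 and lost its call, at an adjusted p of 0.0528.

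Adcyap1, which encodes the peptide PACAP, changed less but with a narrow spread. Its reads were 159 and 144 in somata control and 417 and 349 in somata PTX, or 6.20 CPM ± 0.790 and 14.9 CPM ± 0.153 (SD, n = 2). The 2 PTX libraries were almost equal in CPM and lay well above both controls. The log2 fold change was 1.26 (SE 0.183, adjusted p = 0.00425), and the call was lost without somata control replicate 2 (adjusted p = 0.0673).

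Npy and Vip, both labels of interneuron classes, had fitted changes of about the size of that of Adcyap1 but a wider spread. Npy, the precursor of neuropeptide Y, held 71 and 42 reads in somata control and 207 and 87 in somata PTX, or 2.33 CPM ± 0.971 and 5.56 CPM ± 2.66 (SD, n = 2). Its log2 fold change of 1.27 (SE 0.396) had an adjusted p of 0.124, and of 7.33e-05 once replicate number was entered as a block. Vip, the precursor of vasoactive intestinal peptide, held 21 and 9 reads in somata control and 35 and 37 in somata PTX, or 0.623 CPM ± 0.382 and 1.41 CPM ± 0.218 (SD, n = 2). Its log2 fold change was 1.18 (SE 0.435, adjusted p = 0.2, and 0.0397 with the block). For both genes the PTX libraries lay above the control libraries without overlap. Leaving out a library moved Npy between 0.66 (without somata PTX replicate 1) and 1.76 (without somata control replicate 1), and Vip between 0.64 (without somata control replicate 2) and 1.97 (without somata control replicate 1). Vip passed the read filter through its somata libraries alone, 2 of them PTX and 1 control.

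Sst and Cck, which had the most reads of the members, did not pass. Sst, the precursor of somatostatin, held 1392 and 885 reads in somata control and 1979 and 1064 in somata PTX, or 46.9 CPM ± 17.3 and 58.1 CPM ± 18.5 (SD, n = 2), and it was the only tested member whose groups overlapped. Its log2 fold change was 0.31 with a 95% interval from -0.29 to 0.91 (adjusted p = 0.686, and 0.0231 with the block). Cck, the precursor of cholecystokinin, went from 451 and 459 reads to 653 and 481, or from 18.6 CPM ± 0.842 to 21.9 CPM ± 2.20 (SD, n = 2). Its log2 fold change was 0.24 with a 95% interval from -0.19 to 0.67 (adjusted p = 0.656, and 0.226 with the block). These intervals leave out a rise of the size fitted for Tac1, Penk or Pdyn.

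Crh, the precursor of corticotropin-releasing hormone, was read 2 and 3 times in somata control and 30 and 16 times in somata PTX. Scaled for depth, the summed 46 PTX reads stood against 5 control reads at a ratio of 8.78 (exact 95% interval 3.50 to 28.3, which covers counting error only). Both PTX libraries lay above both controls. In a fit with no read filter, over 22657 genes, its log2 fold change was 3.04 (SE 0.701, adjusted p = 0.000729). That p-value gave no weight to the spread between the libraries of Crh itself. It is therefore not comparable with those of the other members.

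With this replicate block, 7 of the 8 tested members were called higher in somata, all but Cck, against 7.21% of all tested genes. The groups did not overlap, with PTX above control, in 7 of the 8, against 24% of all tested genes. Both counts include Pdyn and Vip, which met the read filter only with their PTX libraries, and so rest in part on that selection. Replicate 2 lay below replicate 1 in all 4 groups for Npy, Sst, Cck and Pdyn, and in 26 of the 32 within-group differences of the tested members. The summed level of the choroid plexus markers Ttr, Kl and Folr1 was also lower in replicate 2, at 6.66 to 11.6 CPM against 44.9 to 48.3 CPM in somata. The fall was mostly that of Ttr. Oligodendrocyte lineage markers went the other way, with a sum of 415 to 450 CPM in replicate 2 against 269 to 292 CPM in replicate 1 in somata. The part of either in these differences was not tested.

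**Figure D2:**
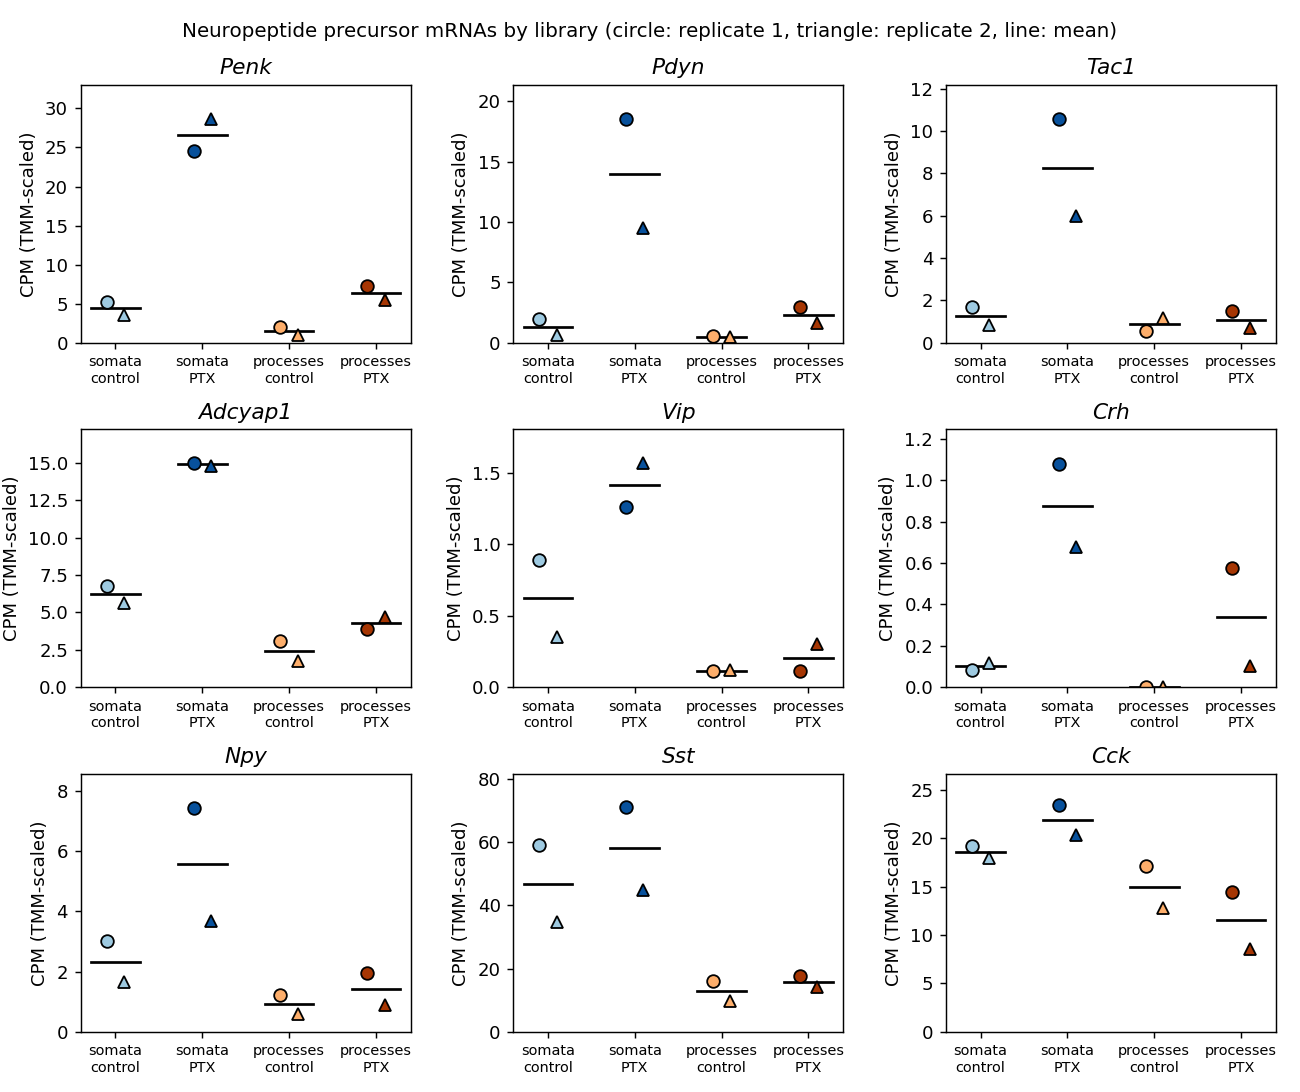
Level of each of the 9 precursor mRNAs in CPM after TMM scaling (linear axes from 0), with circles for replicate 1, triangles for replicate 2 and a line at the mean of each of the 4 groups. Penk, Pdyn, Tac1 and Adcyap1 are above control in both somata PTX libraries, Sst overlaps between somata control and somata PTX, and every gene is lower in PTX processes than in PTX somata.

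In bulk RNA, more peptide-expressing cells and more RNA per cell cannot be told apart, so levels of interneuron genes are given beside these results. Of 13 tested GABAergic neuron genes, 2 were called higher in somata and 0 lower, against 2.09% and 1.5% of all tested genes, with a median log2 fold change of -0.15. With the replicate block 2 were called higher and 4 lower, among them Calb2, Htr3a and Nos1, against 7.21% and 6.79%. The 2 were those of the GABA-synthesizing enzymes, Gad1 at 0.82 (SE 0.171, adjusted p = 0.0247) and Gad2 at 0.92 (SE 0.204, adjusted p = 0.0328), both smaller than the rises of Pdyn, Tac1, Penk and Adcyap1. The vesicular GABA transporter gene Slc32a1 was at -0.02 and the interneuron transcription factor gene Lhx6 at 0.07, and neither passed. The summed level of the list was 636 to 728 CPM in somata control and 745 to 837 CPM in somata PTX. Of 12 glutamatergic neuron genes 4 fell in somata and none passed as higher, with Neurod6 at -1.64 and Camk2a at -1.13. The part of cell composition in the precursor changes was not tested. Of the markers of cell types, the neuronal Rbfox3 fell by 0.67 (adjusted p = 0.0221) and the astrocyte gene Gja1 by 0.61 (adjusted p = 0.0215) with PTX in somata. Each was the 1 of its list called (5 neuron and 6 astrocyte markers tested), against 1.5% of all tested genes called lower. With the replicate block 3 of the 5 neuron markers (Rbfox3, Tubb3 and Syt1) and 2 of the 6 astrocyte markers (Gja1 and Aqp4) were called lower and 0 higher. The block called 6.79% of all tested genes lower. All 3 markers of proliferating cells were called higher in somata with the replicate block and 0 without it, against 7.21% and 2.09% of all tested genes. The part of these cells was not tested. Astrocyte markers summed to 2491 to 3700 CPM in somata, microglia markers to 1.06 to 1.51 CPM, and the endothelial gene Cldn5 was at 0 in all 8 libraries.

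In processes, PTX raised Penk, and no other member passed. That is 1 of 8 tested members, against 1.64% of all tested genes called higher. The median log2 fold change of the 8 was 0.72 against -0.01 over all tested genes, with 7 of them above 0. PTX libraries lay above control libraries without overlap in 3 of the 8 (Penk, Pdyn and Adcyap1), against 20.1% of all tested genes. Of these, Pdyn met the read filter only with its PTX libraries.

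Penk went from 18 and 9 reads in processes control to 63 and 55 in processes PTX, or from 1.53 CPM ± 0.672 to 6.38 CPM ± 1.20 (SD, n = 2). Both PTX libraries lay above both controls. The log2 fold change was 2.04 (SE 0.350, adjusted p = 0.012), a 4.10-fold rise. The call was lost without processes control replicate 1 (adjusted p = 0.0527), without processes control replicate 2 (0.0708) and without processes PTX replicate 1 (0.0754).

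Pdyn had a fitted change of nearly the same size from far fewer reads. It was read 5 and 4 times in processes control and 26 and 16 times in processes PTX, or 0.514 CPM ± 0.0621 and 2.30 CPM ± 0.974 (SD, n = 2). The log2 fold change was 2.12 (SE 0.826) with a 95% interval from 0.30 to 3.95. It did not pass (adjusted p = 0.222) but did with the replicate block (adjusted p = 0.00273), in a fit that called 2 of the 8 members and 5.1% of all tested genes higher.

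Adcyap1 went from 28 and 15 reads to 34 and 47, or from 2.44 CPM ± 0.962 to 4.31 CPM ± 0.581 (SD, n = 2), with a log2 fold change of 0.82 (SE 0.286, adjusted p = 0.171). Tac1, which rose 6.60-fold in somata, held 5 and 10 reads in processes control and 13 and 7 in processes PTX, and its log2 fold change of 0.32 had a 95% interval from -1.26 to 1.91 (adjusted p = 0.88). Its process libraries overlapped between the groups, at 0.558 and 1.17 CPM against 1.49 and 0.704 CPM. The interval includes 0 and ends below the 2.72 fitted in somata, whose own 95% interval ran from 1.86 to 3.59. The narrow overlap of these separate intervals is no test of a difference, for which the interaction is given below.

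The interneuron labels showed no call in processes. Npy held 11 and 5 reads in control and 17 and 9 with PTX (log2 fold change 0.61, SE 0.712, adjusted p = 0.731). Vip held 1 and 1 against 1 and 3 reads, so that its interval ran from -1.88 to 3.60. Sst, with 145 and 83 against 153 and 140 reads, had a log2 fold change of 0.28 (SE 0.348, adjusted p = 0.755). Cck was the only member with a fitted change below 0, at -0.39 (SE 0.236, adjusted p = 0.455), from 154 and 109 reads in control and 126 and 85 with PTX. Crh was not read in either control library, which allows up to 0.335 and 0.352 CPM, and was read 5 and 1 times with PTX, at 0.574 and 0.101 CPM, so no fold is given.

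**Figure D3:**
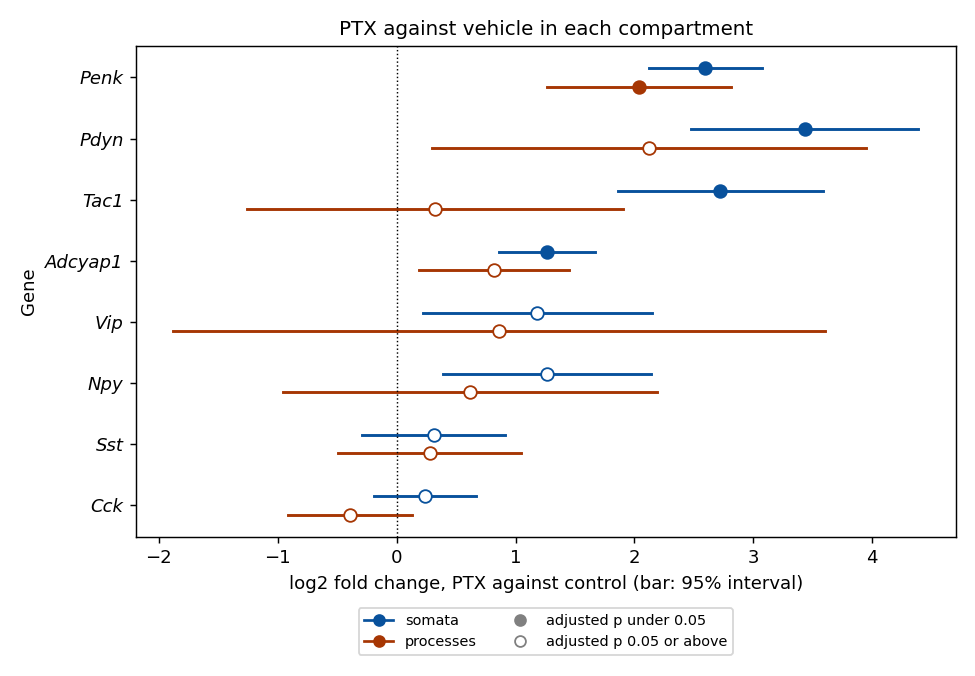
Log2 fold change of PTX against control for the 8 tested members in somata (blue) and processes (brown), with bars for the 95% interval and filled points where the adjusted p is under 0.05. Penk is filled in both compartments, Pdyn, Tac1 and Adcyap1 in somata alone, and the process intervals are the wider ones throughout, with Vip running from -1.88 to 3.60.

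Whether PTX acted differently in the compartments was tested by the interaction, in which the somata log2 fold change is subtracted from that of processes. None of the 8 members was called in this test, as for 0% of all tested genes. At an unadjusted p under 0.05 it found 1 member and 572 genes in all, and the likelihood ratio test and DESeq2 also called no member. With the replicate block no member was called either, against 0.105% of all tested genes. The fitted value was below 0 for all 8 members, with a median of -0.60 against -0.01 over all genes.

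The member at an unadjusted p under 0.05 was Tac1, at -2.40 (SE 0.850, adjusted p above 0.99, and 0.165 with the block), with a 95% interval from -4.28 to -0.52. For Penk the interaction was -0.56 with an interval from -1.54 to 0.41, and for Pdyn -1.31 with an interval from -3.71 to 1.09. Sst was at -0.03, from -1.01 to 0.95. These intervals include 0 for every member but Tac1, and are wide enough that neither equal nor unequal effects were shown.

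The distribution between compartments was then compared, relative to the TMM scaling under which the median tested gene was at -0.05 on the log2 scale of processes over somata. In control cultures Sst, Penk and Adcyap1 were lower in processes, by 2.52-fold to 3.61-fold, and no member was higher. That is 3 of 8 members called lower, against 21.9% of all tested genes, and 6 of 8 with the replicate block, against 28%. Tac1, Npy, Vip and Pdyn passed the read filter through their somata libraries, where they were the higher. At most 1 process library of each held more than 20 reads. These counts are therefore also given for Sst, Cck, Penk and Adcyap1, of which 3 were called lower, and the same 3 with the block. Libraries of the compartments did not overlap in 7 of the 8, against 39% of all tested genes, with Tac1 as the exception. Sst, Cck, Penk and Adcyap1 were all among the 7, and the others of the 7 carry the limit of the read filter just given.

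Sst averaged 46.9 CPM ± 17.3 in control somata and 13.0 CPM ± 4.54 in control processes (SD, n = 2), a log2 fold change of -1.85 (SE 0.317, adjusted p = 0.000788). Penk was at -1.50 (SE 0.339, adjusted p = 0.00421), a call lost without processes control replicate 2 (0.0537), and Adcyap1 at -1.33 (SE 0.252, adjusted p = 0.0015). The somata libraries of all 3 genes lay above their process libraries. Npy at -1.34 (adjusted p = 0.0869), Vip at -2.36 (0.051) and Pdyn at -1.32 (0.207) did not pass, and did with the block (adjusted p = 0.00218, 0.0335 and 0.0178). Leaving out a library moved Npy between -1.97 (processes control replicate 1) and -0.85 (somata control replicate 1), Vip between -2.89 (somata control replicate 2) and -1.56 (somata control replicate 1), and Pdyn between -1.92 and -0.37 on those same somata control libraries.

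Cck and Tac1 had the smallest compartment differences in control cultures. Cck averaged 18.6 CPM ± 0.842 in control somata and 15.0 CPM ± 3.09 in control processes (SD, n = 2), a log2 fold change of -0.31 with a 95% interval from -0.78 to 0.16 (adjusted p = 0.258). Tac1 was at -0.54 with an interval from -1.89 to 0.82 (adjusted p = 0.495), and its libraries overlapped, since the somata libraries read 1.70 and 0.822 CPM and the process libraries 0.558 and 1.17 CPM.

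In PTX cultures all 8 tested members were lower in processes than in somata. That is 8 of 8 called lower, against 24% of all tested genes, and again 8 with the replicate block, against 29.6%. Sst, Cck, Penk and Adcyap1, which also pass the filter on their process libraries, were all called lower. No library of a process group reached its somata counterpart in any of the 8, against 39.7% of all tested genes. Cck was at -0.94 (SE 0.217, adjusted p = 0.00448), Penk at -2.06, Sst at -1.88 and Adcyap1 at -1.78. Tac1 was at -2.94 (SE 0.476, adjusted p = 0.000501), Vip at -2.68 and Npy at -1.99. The Npy call was lost without somata PTX replicate 1 (adjusted p = 0.0523) or processes PTX replicate 2 (0.0757), and the Vip call without processes PTX replicate 1 (0.0534). Leaving out a library moved Tac1 between -3.55 (processes PTX replicate 1) and -2.46 (somata PTX replicate 1), Pdyn between -3.12 and -2.06 on the same 2 libraries, and Vip to as low as -3.54 without processes PTX replicate 2. The control and PTX comparisons of compartments share no library, and their difference is the interaction given above.

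**Figure D4:**
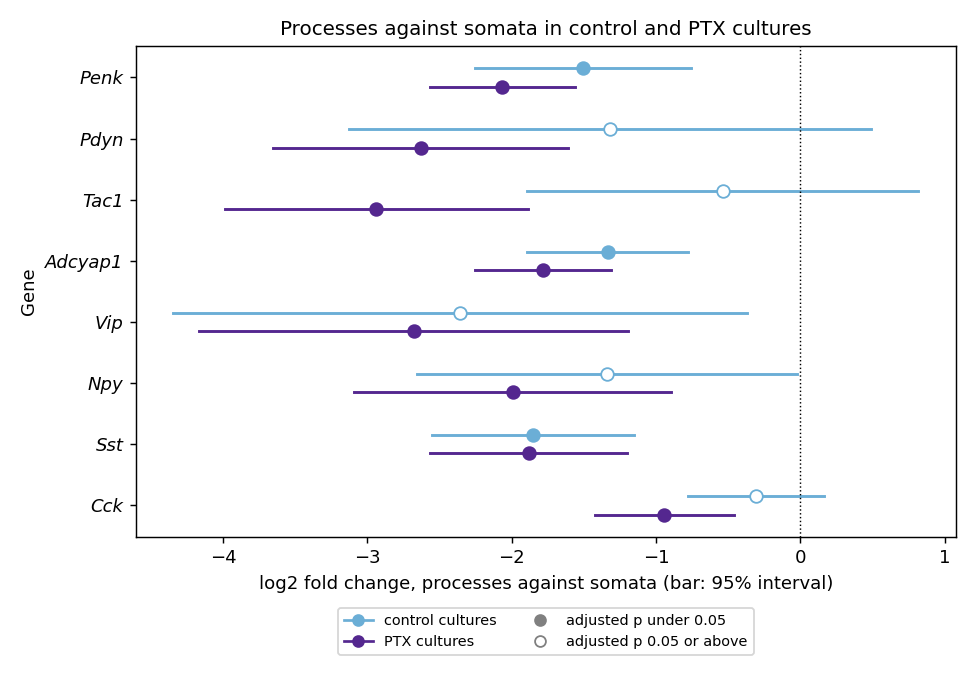
Log2 fold change of processes against somata for the 8 tested members in control cultures (light blue) and PTX cultures (purple), with bars for the 95% interval and filled points where the adjusted p is under 0.05. All 8 points are filled and below 0 in PTX cultures, while in control cultures Sst, Penk and Adcyap1 are filled and Cck lies nearest to 0 at -0.31.

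Markers of the cell types did not move as one between compartments of control cultures. Of 6 astrocyte markers 2 were higher in processes (Gfap at 2.60 and Slc1a2 at 0.75) and 2 lower (Slc1a3 at -0.56 and Gja1 at -0.38). Of 5 neuron markers 2 were higher (Map2 at 2.30 and Rbfox3 at 0.52) and 3 lower (Syt1 at -0.98, Tubb3 at -0.57 and Snap25 at -0.37). Of 7 oligodendrocyte lineage markers 1 was higher (Olig1 at 0.96) and 0 were lower. Of 3 markers of proliferating cells 2 were higher (Top2a at 0.86 and Mki67 at 0.62) and 1 lower (Ccnb1 at -0.74). Of all tested genes 25.8% were called higher and 21.9% lower. The summed levels, 9420 to 12738 CPM for astrocyte and 3709 to 5212 CPM for neuron markers in processes, are mostly Gfap and Map2. The summed GABAergic genes were lower in processes, at 363 to 424 CPM in control and 444 to 526 CPM in PTX cultures, with 7 of 13 called lower in control cultures, against 21.9% of all tested genes. The part of these cells in the compartment differences of the precursors was not tested.

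The partners of the peptides were followed in 3 further lists. Among receptors and binding proteins, 11 of the 21 genes in the table were tested, and PTX in somata raised 1 and lowered 2, against 2.09% of all tested genes called higher and 1.5% lower. Crhbp, whose product binds corticotropin-releasing hormone outside cells, rose by 2.33 (SE 0.512, adjusted p = 0.032), from 170 and 66 reads to 985 and 320. The neuropeptide Y receptor gene Npy1r fell by 1.78 (SE 0.214, adjusted p = 0.00169), from 175 and 188 reads to 62 and 49, and the somatostatin receptor gene Sstr3 fell by 1.52 (SE 0.344, adjusted p = 0.0355). The neurokinin receptor gene Tacr3, next in the list by p, was at 1.01 (adjusted p = 0.0845, and 0.00851 with the block). With the replicate block 4 of the 11 were called higher and 3 lower, against 7.21% and 6.79% of all tested genes. In processes Npy1r was called, at -1.68 (SE 0.348, adjusted p = 0.0271), and 0 others were, against 2.1% of all tested genes called lower, while the block also called Crhbp, higher at 1.57 (adjusted p = 0.471 without the block and 0.00124 with it). The block called 5.1% of all tested genes higher in processes. Between compartments of control cultures, 1 of the 11 was called higher in processes and 2 lower, against 25.8% and 21.9% of all tested genes. With the block 1 was higher and 7 lower, against 28% of all tested genes called lower. The 1 higher was the PACAP receptor gene Adcyap1r1, at 1.0 (SE 0.181, adjusted p = 0.00111), opposite in direction to its ligand gene Adcyap1. The 2 lower were Npy1r at -1.34 and Cckbr at -1.07. Cckbr passed the read filter through somata libraries alone.

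Of the enzymes and chaperones that process precursors, 10 were tested and 2 rose in somata, against 2.09% of all tested genes. Pam, which encodes the enzyme that amidates peptide ends, rose by 1.59 (SE 0.145, adjusted p = 0.000337) in somata and by 1.01 (SE 0.147, adjusted p = 0.00538) in processes, where 0 others passed and the block added Pcsk5 (higher at 0.94, adjusted p = 0.000538) and Scg5 (lower at -0.50, adjusted p = 0.0314), against 5.1% of all tested genes called higher and 6.09% lower with the block. The convertase gene Pcsk5 rose by 1.05 in somata (SE 0.210, adjusted p = 0.0203). The main neuronal convertase genes passed with the replicate block alone, with Pcsk1 at 1.12 (adjusted p = 0.0777, and 0.000237 with the block) and Pcsk2 at 0.42 (adjusted p = 0.0779, and 0.00161 with the block). In control cultures 8 of the 10 were lower in processes, against 21.9% of all tested genes, and 1, the carboxypeptidase gene Cpe, was higher at 1.56 (SE 0.178). Pcsk1, 1 of the 8, passed the read filter through somata libraries alone, with 5 to 13 reads in processes.

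Of 24 other precursor genes 9 were tested, and 3 were called higher in somata and 0 lower, against 2.09% and 1.5% of all tested genes. With the replicate block 5 were called higher, against 7.21%. The 3 were Vgf at 1.92 (SE 0.289, adjusted p = 0.0055), the nociceptin precursor Pnoc at 2.34 (SE 0.430, adjusted p = 0.0141) and the thyrotropin-releasing hormone precursor Trh at 2.77 (SE 0.545, adjusted p = 0.0195). Calca, next by p, was at 1.52 (adjusted p = 0.0621, and 0.00406 with the block). Trh and Calca passed the read filter through the somata PTX libraries alone, where they were high, so their values are a description and the count rests in part on that selection. Trh held 10 and 5 reads in somata control and 83 and 29 in somata PTX, and Calca 15 and 12 against 53 and 30. In processes Vgf was called, at 1.77 (SE 0.352, adjusted p = 0.0221), and with the block also Cartpt, the precursor of CART peptide, at 1.65 (adjusted p = 0.00727 with the block and 0.46 without it). Of all tested genes 1.64% were called higher in processes, and 5.1% with the block.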

How the data were processed

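Per the labels and the study's methods, ribosome-depleted total RNA of 2 compartments was sequenced with a directional kit. The authors trimmed the reads, mapped them to Rnor_6.0, counted them per gene with featureCounts and aggregated them to symbols, and the deposited values are whole-number counts without normalization. The methods name Subread subjunc as the aligner, whereas the submitters' processing notes name STAR. The strand setting of the counting is not given in the sources used here, and copies, overlapping or antisense genes cannot be told apart. Deposited tables of the authors' own PTX comparisons (log2 fold changes, p-values) were not used.

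Groups and replicate numbers came from the sample titles. The filter of the study, over 20 reads in 2 or more libraries, left 14309 genes, and 1 coefficient per group was fitted to all 8 libraries with edgeR 4.0.16 (R 4.3.3), TMM factors (1.81 to 1.93 in somata, 0.486 to 0.570 in processes), glmQLFit and glmQLFTest, where the study used the likelihood ratio test. P-values were adjusted by Benjamini-Hochberg within each contrast (threshold 0.05), and the steps were tested on simulated counts. The median tested gene was covered by 289 reads in somata and 102.5 in processes. Intervals of read ratios and floors of 3 reads cover counting error only.

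All 9 members are named, and from each further list up to 4 tested genes with the smallest p, with others chosen after their values were seen (Slc32a1, Lhx6, Cpe, Adcyap1r1, Nos1, Htr3a, Scg5, Cartpt). Some single genes are left out of the text. Members and lists were chosen with earlier results of these data known. The replicate numbers were treated as pairing the libraries, on a correlation found in these same data. Over all genes the difference of replicate 2 from replicate 1 was correlated between groups, at r = 0.54 for the somata groups and 0.274 to 0.367 for the other 5 pairs. The labels give the numbers without saying what they mark, so values with the block hold only if the numbers do mark pairs. The fit with the block left 3 residual degrees of freedom. Alternatives were DESeq2 1.42.0 or the likelihood ratio test, upper quartile, RLE or library size scaling, no filter or 10 reads in each library, a fit of the 4 compared libraries alone, a replicate block, and leaving out each library.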

Additional observations from a re-analysis of the deposited data

Results flagged for a closer look

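Cck was flagged because the difference of PTX from control was above 0 in somata and below 0 in processes for both replicate numbers. Subtracting the somata effect from that in processes gave -0.63 on the log2 scale (SE 0.305), with a 95% interval from -1.31 to 0.04. By edgeR's quasi-likelihood test this difference did not pass (unadjusted p = 0.0627, adjusted p above 0.99, and 0.348 with the replicate block), so that the effects on Cck were not shown to differ between compartments.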

How the results depend on the processing

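Of the members' log2 fold changes recomputed under the alternatives, 590 kept their direction and side of the threshold, 28 passed it newly, 9 lost it and 14 changed sign, the last all after leaving out 1 library of values that had not passed. In somata, the 4 members called became 7 with the replicate block, 1 with at least 10 reads in every library (3 members left to test) and 6 of 9 without a filter, and left-out libraries gave 2 to 4. The 6 without a filter include Crh. The limit stated above for its p-value belongs to that fit, so it also holds for every other call made without a filter. In processes, the 1 called became 2 with the likelihood ratio test, DESeq2, no filter or the replicate block (Pdyn was added each time) and 0 with the stricter filter, and left-out libraries gave 0 to 1. For compartments of control cultures, the 3 called became 5 with the likelihood ratio test or upper quartile, 8 by library size only, 6 with no filter or the block, and 2 to 5 with left-out libraries. For PTX cultures, the 8 became 3 under the stricter filter (all that were tested) and 7 to 8 with left-out libraries. The interaction called no member under any alternative. The replicate block changed no other call of a member than those given beside the results.

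Sign changes came with left-out libraries. With PTX in somata Sst ranged from -0.063 to 0.742. With PTX in processes Tac1 ranged from -0.29 to 0.94, Sst from -0.037 to 0.694 and Npy from -0.014 to 1.25. Tac1 ranged from -1.15 to 0.059 between compartments of control cultures. The interaction ranged from -0.46 to 0.38 for Sst, from -1.18 to 0.22 for Vip and from -0.79 to 0.030 for Adcyap1.

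The cause of these moves was not tested, beyond the smaller number of genes or libraries that some alternatives hold by construction. Scaling by library size only moved the median of all genes in processes over somata to -1.86 in control and -1.87 in PTX cultures, and upper quartile to -0.25 and -0.23, and relative to that median Cck in control cultures stayed at -0.26 to -0.27 and Sst at -1.80 to -1.81. Over all genes, PTX called 513 in somata (972 with the likelihood ratio test, 1141 without a filter, 2002 with the block, as few as 116 without 1 library) and 535 in processes (949, 1129, 1601 and as few as 97, and 299 with only the 4 libraries compared). Control compartments differed in 6823 genes and PTX compartments in 7121, or 13462 and 13499 by library size only, of which 191 and 181 were higher in processes, against 3688 and 3680 under TMM. The interaction called 0 genes, 4 with the likelihood ratio test or DESeq2, 10 without a filter and 15 with the block. The block lowered the common dispersion from 0.0132 to 0.00459. With 2 libraries per group and at most 17 reads per process library for 4 members, the intervals of their PTX effects in processes are wide.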

Other observations

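The genes whose log2 CPM followed 7 of the tested members most closely over the 8 libraries were named as a description, from genes that averaged 5 CPM or more. The 8 libraries are 4 groups of 2 and differ in compartment and treatment, so they are not 8 independent points. The nearest gene was Rasgrp1 for Penk (Pearson's r = 0.988), Pdk3 for Pdyn (0.989), Zc3h12c for Tac1 (0.967), LOC103690317 for Adcyap1 (0.998), Slc4a10 for Sst (0.995), Fry for Cck (0.990) and Ddx10 for Vip (0.987). Tac1, whose process libraries held 5 to 13 reads, had the lowest of these values.

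Cartpt was the next of the other precursor genes by p in somata, with 71 and 24 reads in control and 230 and 50 with PTX. Its log2 fold change was 1.42 (SE 0.627, edgeR adjusted p = 0.308, and 8.4e-05 with the replicate block). It was chosen after its values were seen. Replicate 2 was below replicate 1 in all 4 of its groups, as for Npy, Sst, Cck and Pdyn. Of the markers of other cell types, those of proliferating cells also moved with PTX in processes, where Top2a was at 1.01 (adjusted p = 0.0047) and Ccnb1 at 1.27 (adjusted p = 0.0203), and their part in the precursor values was not tested.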
